A study of Mus musculus with 4 samples.

Results

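The solute carrier (Slc) families that carry amino acids and related compounds were followed in mouse ID8 ovarian cancer cells after knockdown of the deubiquitinase USP9X. Members were all rows of the deposited gene table whose symbol belongs to the families Slc1, Slc3, Slc6, Slc7, Slc36, Slc38 or Slc43, apart from 1 gene that is not reported here. They numbered 63 of the 22063 genes listed. ID8 is an established line derived from mouse ovarian surface epithelium. The shCtrl group (2 libraries, genotype labelled WT) was ID8 cells with a control shRNA, and the shUSP9X group (2 libraries) was ID8 cells labelled as USP9X knockdown. All 4 libraries were total RNA of cultured cells sequenced after poly(A) selection, with no drug or other treatment in the labels. The shRNAs were delivered by lentivirus, per the study's methods, and the clonality of the lines is not given in the sources used here. Nor do the labels say which USP9X shRNA was used, or whether both shUSP9X libraries share it. An effect of the shRNA or of the line therefore cannot be told apart from that of the knockdown. Nothing in the labels says that the 2 libraries of a group came from separate cultures, so p-values measure only the spread between these libraries, which may be technical.

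Amino acids do not cross the plasma membrane unaided, and cells take them up through carriers of several unrelated families. Slc1 and Slc38 carriers use the sodium gradient, and the latter bring in glutamine and small neutral amino acids. Slc7 light chains such as LAT1 exchange an amino acid inside for another outside and reach the surface only when joined to an Slc3 heavy chain, while the cationic amino acid transporters of the same family work alone. Slc6 carriers couple uptake of neurotransmitters, glycine, taurine and creatine to sodium and chloride, Slc36 carriers move small neutral amino acids, some of them with protons and out of lysosomes, and Slc43 proteins are facilitated carriers. Proliferating tumour cells commonly depend on glutamine and leucine uptake, and several carrier genes are targets of ATF4, the transcription factor of the amino acid response.

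The knockdown was seen in the targeted gene. Usp9x was at 298 and 282 CPM in shCtrl and at 19.7 and 20.5 CPM in shUSP9X. CPM here are a gene's counts scaled by its library's total after the filter, multiplied by the library's TMM factor. The log2 fold change of Usp9x was -3.85 ± 0.06 (SE, 2 libraries a group, edgeR adjusted p = 4.7e-26). Throughout, differences are shUSP9X minus shCtrl on TMM-normalised counts, p-values are from the quasi-likelihood test of edgeR with Benjamini-Hochberg adjustment over all 11448 genes tested, and a gene is called lower or higher at an adjusted p under 0.05. A refit that removed each library's trend on GC content and transcript length is given beside the members' results where it changed the call, the direction or the size by more than 1.5 times. In that refit the log2 fold change of Usp9x was -2.31. The shCtrl libraries held 17232006 and 15611363 counts in all, and the shUSP9X libraries 19978889 and 17021261.

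The cells carried the keratin and mesothelial markers of their line in all libraries, with Krt8, Krt18, Krt19, Wt1, Msln and Upk3b each at 2572 counts or more, while Krt7, Pax8 and Epcam had at most 9 counts in any library. These markers moved with the knockdown too, in both directions. By log2 fold change Krt8 (0.92) and Krt18 (0.64) were higher and Wt1 (-0.52) and Msln (-0.47) lower, and with the GC and length trend removed these 4 were called in the same direction (0.59, 0.25, -0.76 and -0.78). Krt19, the most abundant marker of the list, turned from 0.12 to -0.24, called in both fits, and Upk3b from 0.05, which did not pass, to -0.18, which did. Leukocyte markers also differed. All 9 of the list were at 0 in both shCtrl libraries, and 7 of 9 had counts in shUSP9X, summing to 185 and 174 counts (9.36 and 10.3 CPM). Itgam was the most abundant of them, at 72 and 75 counts, and C1qa and Cd3e were at 0 in all 4 libraries. The fibroblast and endothelial list summed to 4374 and 4113 counts in shCtrl and to 2939 and 2446 in shUSP9X. Dcn was its most abundant gene, and Lum and Cdh5 were at 0 in all libraries. Lower were 3 of 4 tested genes, or 2 of 4 with that trend removed. Pdgfra (-2.87, then -2.6) and Col1a1 (-1.72, then -1.7) were lower in both fits. Dcn was lower in the main fit only (-0.46, then -0.07), and Pecam1 did not pass in either. Neuronal and glial markers summed to 73 and 62 counts in shCtrl and to 17 and 39 in shUSP9X, mostly from Map2, and Gfap, Aqp4, Olig2 and Rbfox3 were at 0 throughout. In RNA from a whole culture, fewer cells of a type and less RNA per cell cannot be told apart, and the part of these markers in the transporter results was not tested.

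ID8 cells used a minority of the 63 genes. In all 4 libraries 24 were at 0, a further 10 had at most 3 counts in every library, 7 exceeded 3 counts in some library but were too low to test, and 22 passed the filter on low counts. Of the 21 Slc6 genes, which include the carriers of dopamine, noradrenaline and GABA, 11 were at 0 in all libraries and 3 were tested. The tested genes by family were 2 of 7 in Slc1, 1 of 2 in Slc3, 6 of 15 in Slc7, 2 of 4 in Slc36, 6 of 11 in Slc38 and 2 of 3 in Slc43. One of the Slc7 rows, Slc7a6os, is placed there by its symbol only. It is a neighbour of Slc7a6 and not a transporter.

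Per transcript length, on the deposited FPKM scale, the taurine carrier Slc6a6 had the highest level of the 22 (mean 181 FPKM over the 4 libraries). Slc6a6 and then the heavy chain Slc3a2 (mean 123 FPKM) led in both groups. The next 3, the glutamine carrier Slc38a2, Slc43a3 and the leucine carrier Slc7a5, had means of 99.2, 82.1 and 64.9 FPKM, but their order differed between the groups, with Slc43a3 below Slc7a5 in both shCtrl libraries and above Slc38a2 in both shUSP9X libraries. Slc7a7 (0.715 FPKM) and Slc38a9 (0.972 FPKM) were the lowest. The summed FPKM of all members was 913 and 954 in shCtrl and 889 and 910.5 in shUSP9X, so the shUSP9X libraries lay below both shCtrl libraries by a small margin. Their summed CPM, which long transcripts weigh on more, was 3681 and 3811 in shCtrl and 3413 and 3425 in shUSP9X.

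**Figure D1:**
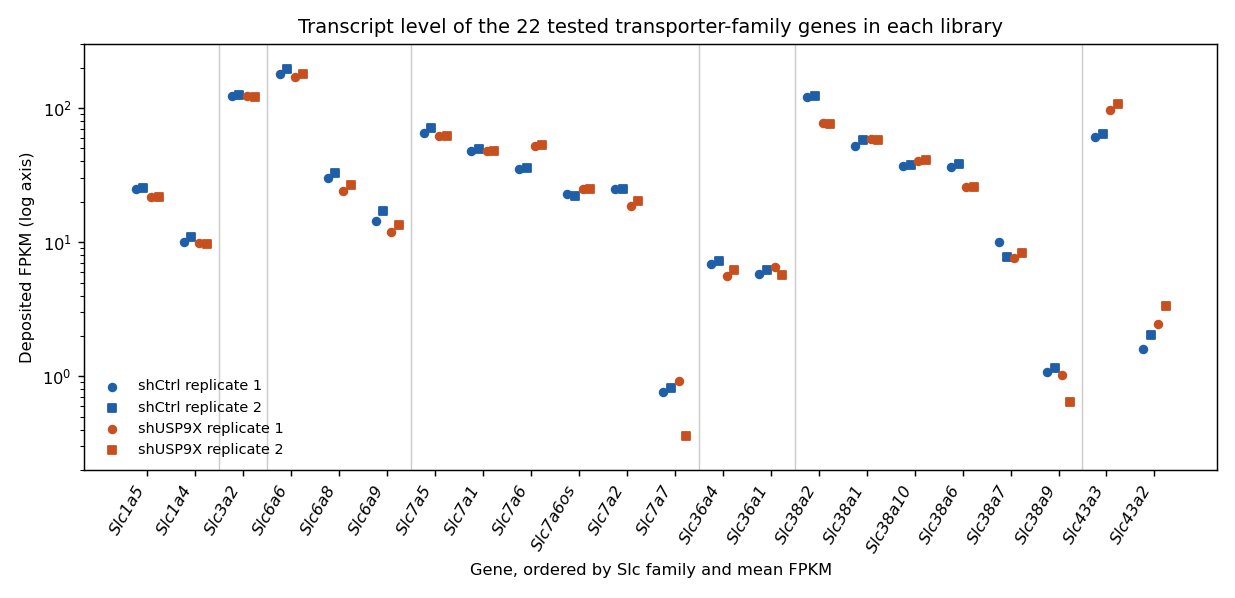
Deposited FPKM (log axis) of the 22 tested genes, ordered by Slc family and then by mean level, with 1 point per library (blue shCtrl, orange shUSP9X, circles replicate 1, squares replicate 2) and grey lines between families. Levels span from Slc7a7 below 1 FPKM to Slc6a6 near 181 FPKM, and the colours stand clearly apart in Slc38a2, Slc38a6, Slc7a6 and Slc43a3.

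After the knockdown more of these genes fell than rose, and nearly all changes were small. Of the 22 tested, 10 were lower, 3 were higher and 9 did not pass, which is 45.5% lower and 13.6% higher. Over all genes tested, 33.6% were lower, 33.8% were higher and 67.3% were called in either direction. The share of members called (59.1%) was thus near the background in this fit, and the members' calls leaned to the lower side. Their median log2 fold change was -0.10 (all genes tested 0.00), and the median of its size without sign was 0.18 (all genes tested 0.38). The signed median was -0.04 without shCtrl replicate 2, and between -0.12 and -0.08 without each other library. In the limma fit on log2(FPKM + 1) with no filter it was -0.03. The other tested genes of the Slc and Slco classes, 166 in number, had 42 lower, 55 higher, a median of 0.06 and a median size of 0.33. With a fold change above 1.5 asked for as well, 1 member was lower and 0 were higher, beside 18.5% and 10.6% of all genes tested. At the study's cutoff, an unadjusted p under 0.05 with a fold change above 1.5, the members again had 1 lower and 0 higher, beside 18.7% and 10.8%.

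Groups did not overlap in CPM for 11 members that were lower and 5 that were higher in shUSP9X, where the background was 41.0% and 41.2% (82.3% in either direction). The count of 10 lower members was 6 of 22 under DESeq2, with 3 higher. Of the 11448 genes in that fit 3237 were lower and 3326 higher. The members' share lower was thus near the background under DESeq2. The 3 higher members were 7 with the GC and length trend removed, where 35.2% of all genes tested were higher. The 7 members lower both with and without that trend were Slc1a5, Slc6a6, Slc6a8, Slc6a9, Slc7a5, Slc38a2 and Slc38a6, and the 2 higher in both were Slc7a6 and Slc43a3.

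**Figure D2:**
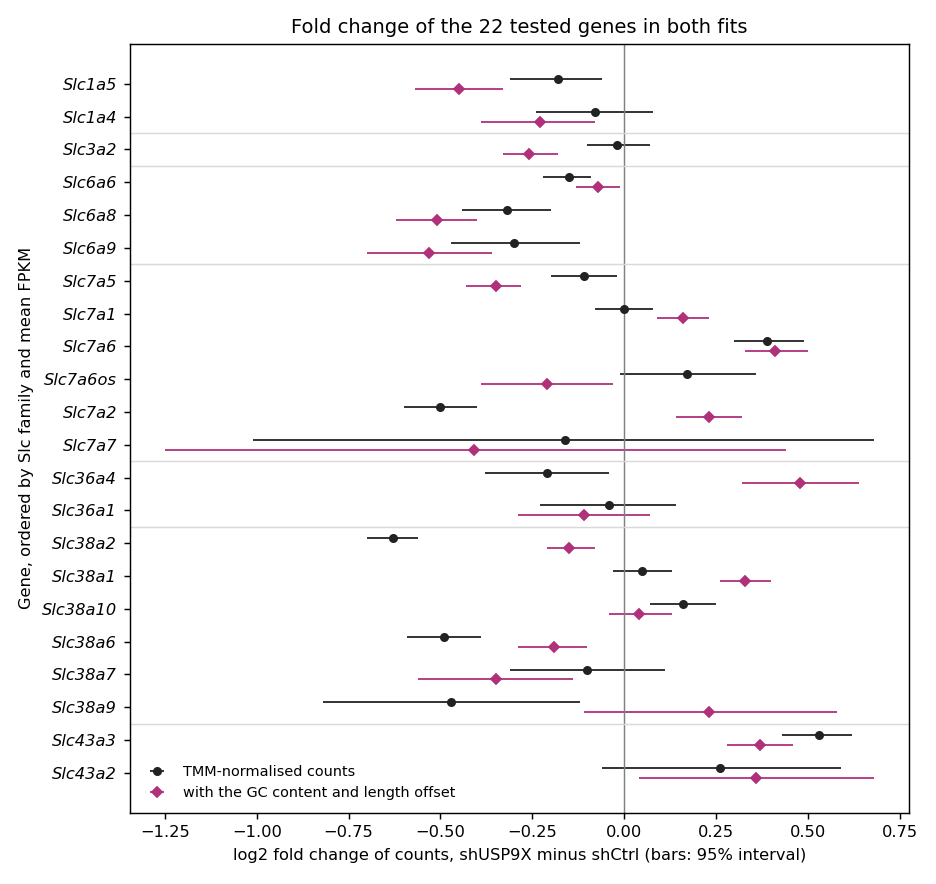
Log2 fold change of counts (shUSP9X minus shCtrl, horizontal axis) of the 22 tested genes with 95% intervals, from TMM-normalised counts (black circles) and after removal of the GC and length trend (magenta diamonds), 2 libraries a group. Slc38a2 (-0.63) and Slc43a3 (0.53) mark the ends of the black points, and the magenta points of Slc7a2, Slc36a4, Slc38a9 and Slc7a6os lie on the other side of 0.

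The GC content of a transcript went with its fold change over the whole table, which bears on the members unequally. In 10 equal classes by GC content, the genes tested had a median log2 fold change of -0.88 in class 1 (the lowest, 31.9 to 41.6% GC), -0.41 in class 2, -0.19 in class 3 and 0.25 in class 9. No member lay in the lowest or the highest class. The 5 members in classes 2 and 3 (Slc36a4, Slc7a2, Slc38a2, Slc38a9 and Slc38a6, 43.4 to 44.8% GC) were all lower in the main fit. With the trend removed, 27.9% of all genes were lower and 35.2% higher (63.1% in either direction). Of the members 11 were lower, 7 were higher and 4 did not pass, so the share called was near the background in the main fit only. The median size of the members' change then was 0.29, beside 0.32 for all genes tested, so their smaller changes in the main fit did not persist there. The median GC content of the 22 was 52.6%, beside 50.1% for all genes tested.

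**Figure D3:**
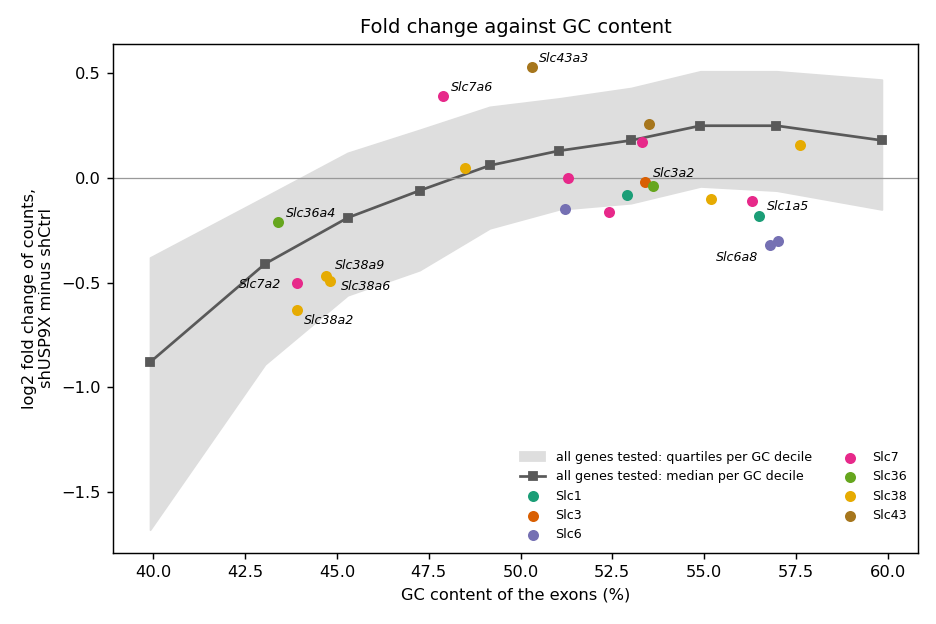
Log2 fold change of counts (shUSP9X minus shCtrl) against GC content of the exons (%) for the 22 tested genes, coloured by family, over the median (squares and line) and quartiles (grey band) of all genes tested in 10 equal classes of GC content. The 4 lowest members lie between 43.9 and 44.8% GC, and Slc7a6 and Slc43a3 lie above the upper quartile of genes of their GC content.

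Glutamine and other small neutral amino acids enter through Slc38 and Slc1 carriers, and the largest fall of all members in the main fit was in this group (with the GC and length trend removed the Slc6 genes Slc6a9 and Slc6a8 had the lowest values, -0.53 and -0.51). Slc38a2 (SNAT2, chr15:96687392-96699730, minus strand) is the sodium-coupled carrier that cells raise when amino acids run short. It was at 556 and 564 CPM in shCtrl and at 364 and 361 CPM in shUSP9X (120.1 and 123 against 77.3 and 76.6 FPKM). The groups were far apart and the libraries within each nearly equal. Its log2 fold change was -0.63 ± 0.03 (SE, 95% interval -0.70 to -0.56, edgeR adjusted p = 1.29e-14), and it was the member that passed the 1.5-fold cutoff. With the GC and length trend removed the fall was -0.15 (edgeR adjusted p = 2.5e-04), still lower but under that cutoff.

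Its neighbour on chromosome 15, Slc38a1 (SNAT1, chr15:96571418-96642913, minus strand), carries much the same amino acids and did not follow it. Slc38a1 had 295 and 309 CPM in shCtrl and 313 and 313 CPM in shUSP9X, a log2 fold change of 0.05 (95% interval -0.03 to 0.13, edgeR adjusted p = 0.231). In shUSP9X its FPKM was 58.8 and 57.9, where Slc38a2 was at 77.3 and 76.6 FPKM, so the level of Slc38a2 stayed above that of Slc38a1 per transcript length. Slc38a1 was higher with the GC and length trend removed (0.33, edgeR adjusted p = 1.42e-08) and also without shCtrl replicate 2 (0.09, edgeR adjusted p = 0.0231). In both fits the fold change of Slc38a2 lay below that of Slc38a1.

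The rest of the Slc38 family went both ways. Slc38a6, a member with no settled substrate (chr12:73286779-73354049), fell from 139 and 145 CPM to 100.9 and 101.1 CPM, a log2 fold change of -0.49 ± 0.05 (SE, edgeR adjusted p = 1.38e-09) that was -0.19 with the trend removed (edgeR adjusted p = 8.2e-04). Slc38a9, the lysosomal arginine sensor of the mTORC1 pathway, was at 9.46 and 8.66 CPM in shCtrl and at 7.29 and 5.76 CPM in shUSP9X. Its call (-0.47, edgeR adjusted p = 0.0168) was lost under DESeq2, in the limma fit with no filter, without shCtrl replicate 1 and without shUSP9X replicate 2 (-0.31), and turned to 0.23 with the trend removed (edgeR adjusted p = 0.235). Slc38a7, which exports glutamine from lysosomes, had 27.7, 23.2, 23.6 and 24.1 CPM in the 4 libraries, shCtrl first, and did not pass (-0.10, edgeR adjusted p = 0.406). Without shCtrl replicate 1, its highest library, the value was 0.05. With the trend removed Slc38a7 was lower (-0.35, edgeR adjusted p = 0.00464). Slc38a10 was at 154.5 and 154 CPM in shCtrl and at 170 and 174 CPM in shUSP9X, higher by 0.16 (edgeR adjusted p = 0.00303), which was 0.15 without shUSP9X replicate 2 and 0.04 with the trend removed, neither of which passed (edgeR adjusted p = 0.0558 and 0.389). The 3 limma fits on FPKM did not call it either. Of its exonic bases 5.72% overlap a transcript on the opposite strand, and the library kit does not mark strand.

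In the Slc1 family the glutamine exchanger Slc1a5 (ASCT2, chr7:16781340-16798274) was expressed highest. It had 68.8 and 69.3 CPM in shCtrl and 60.8 and 60.8 CPM in shUSP9X. The groups did not overlap, and the log2 fold change was -0.18 ± 0.06 (SE, edgeR adjusted p = 0.00897), which was -0.45 with the trend removed (edgeR adjusted p = 3.13e-07). The call was lost without either shUSP9X replicate (edgeR adjusted p = 0.0701 and 0.0716) and under DESeq2 (adjusted p = 0.062), at about the same size. Slc1a4 (ASCT1), which exchanges alanine, serine and cysteine, was at 39.3 and 42.1 CPM in shCtrl and at 38.6 and 38.3 CPM in shUSP9X, and did not pass (-0.08, edgeR adjusted p = 0.368). It was lower with the trend removed (-0.23, edgeR adjusted p = 0.00768). Its value was -0.12 without shCtrl replicate 1 and -0.03 without shCtrl replicate 2. The glutamate carriers of the family were at 0 or under the filter in all libraries.

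The CD98 complexes carry leucine and other large neutral amino acids. Slc3a2, the heavy chain itself (chr19:8706882-8723369, minus strand), had 217 and 221 CPM in shCtrl and 219 and 214 CPM in shUSP9X. The groups overlapped, and the log2 fold change was -0.02 (95% interval -0.10 to 0.07, edgeR adjusted p = 0.709). Removal of the GC and length trend put it at -0.26 (edgeR adjusted p = 2.04e-06). Its light chain Slc7a5 (LAT1, chr8:121881150-121907694, minus strand), the main leucine importer of many tumour cells, was at 229 and 245 CPM in shCtrl and at 221 and 218 CPM in shUSP9X, a log2 fold change of -0.11 ± 0.04 (SE, edgeR adjusted p = 0.0243). The shUSP9X libraries lay just under the lower shCtrl library, and the call was lost in 8 of 16 alternative settings, namely DESeq2, upper-quartile factors, the 3 limma fits on FPKM, and without shCtrl replicate 2 (-0.06), shUSP9X replicate 1 or shUSP9X replicate 2. It was -0.35 with the trend removed (edgeR adjusted p = 1.51e-08).

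A second partner of the heavy chain moved the other way. Slc7a6 (y+LAT2, chr8:106168857-106198706) exchanges arginine for neutral amino acids and sodium. It rose from 115 and 118 CPM to 154 and 152 CPM, with no overlap and a log2 fold change of 0.39 ± 0.05 (SE, edgeR adjusted p = 4.19e-08), and it was at 0.41 with the trend removed. On the log2(FPKM + 0.1) scale the rise was 0.56, from 35.27 and 35.96 to 52.0 and 53.1 FPKM. Slc7a6os, the gene next to it, shares no exon with it and had 28.3 and 27.0 CPM in shCtrl and 31.1 and 31.3 CPM in shUSP9X. It did not pass (0.17, edgeR adjusted p = 0.0861), and the value was -0.21 with the trend removed (edgeR adjusted p = 0.0372). Slc7a7 (y+LAT1), the close relative of Slc7a6, was low in all libraries (1.33, 1.83, 1.92 and 0.831 CPM, shCtrl first). Its interval of -1.01 to 0.68 allows a change of either sign (-0.16, or -0.41 with the trend removed, edgeR adjusted p = 0.74 and 0.399). Oxa1l, on the opposite strand, overlaps 7.0% of the exonic bases of Slc7a7, so these reads may be mixed.

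The cationic amino acid transporters import arginine and lysine. Slc7a1 (CAT1, chr5:148327410-148399904, minus strand), the widely expressed one, had 333 and 348 CPM in shCtrl and 342 and 340.3 CPM in shUSP9X. The shUSP9X values lay between the shCtrl values, and the log2 fold change was 0.00 (95% interval -0.08 to 0.08, edgeR adjusted p = 0.966), or 0.16 with the trend removed (edgeR adjusted p = 1.74e-04). Slc7a2 (CAT2, chr8:40862396-40922308), which is inducible in many cells, was at 155 and 147 CPM in shCtrl and at 105 and 109 CPM in shUSP9X. That is a log2 fold change of -0.50 ± 0.05 (SE, edgeR adjusted p = 1.21e-09) with no overlap between groups. It turned to 0.23 with the trend removed (edgeR adjusted p = 1.07e-04), so these data give no direction for Slc7a2 that holds in both fits. Of its exonic bases 6.95% overlap a long noncoding RNA on the opposite strand.

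A pair of Slc7 genes below the filter were picked because both libraries of 1 group and neither of the other exceeded 3 counts. Their values are therefore a description of that choice and no test. The counts of Slc7a3 (CAT3) were 4 and 13 in the shCtrl libraries against 1 and 1 after knockdown, and the shCtrl libraries differed widely from each other. For Slc7a8 (LAT2) they were 0 and 0 against 5 and 4. Slc7a8 thus shared its pattern of 0 in both shCtrl libraries with the leukocyte markers, whose part in it was not tested.

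All 3 tested genes of the sodium- and chloride-coupled Slc6 family were lower, in both fits. Of all genes tested 33.6% were lower, or 27.9% with the trend removed. Slc6a6 (TauT, chr6:91684053-91759066), which imports taurine, was at 968 and 1027 CPM in shCtrl and at 896 and 896 CPM in shUSP9X, a log2 fold change of -0.15 ± 0.03 (SE, edgeR adjusted p = 2.11e-04). It was -0.07 with the trend removed (edgeR adjusted p = 0.0322), and on the FPKM scale (179.8 and 194 against 170.1 and 179 FPKM) the groups lay close together and none of the 3 limma fits called it (lowest adjusted p = 0.122). Slc6a8, the creatine carrier on the X chromosome (chrX:73673150-73682502), fell from 92.6 and 99.5 CPM to 73.8 and 79.9 CPM, with a log2 fold change of -0.32 ± 0.06 (SE, edgeR adjusted p = 2.09e-05). Its value was -0.51 with the trend removed and it was called lower in all 16 alternative settings. Slc6a9 (GlyT1), which imports glycine, was at 44.0 and 53.3 CPM in shCtrl and at 37.2 and 42.0 CPM in shUSP9X. The groups did not overlap (-0.30 ± 0.09 SE, edgeR adjusted p = 0.0033), but the spread in shCtrl was wide, and without shCtrl replicate 2 the value was -0.15 (edgeR adjusted p = 0.13) and without shUSP9X replicate 1 it was -0.21 (edgeR adjusted p = 0.0654). The limma fit with no filter did not call it. Ccdc24, on the opposite strand, overlaps 27.8% of the exonic bases of Slc6a9, so its reads may be mixed. With the trend removed it was -0.53 (edgeR adjusted p = 5.06e-06).

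The Slc36 pair was low and gave no firm change. Slc36a1 (PAT1), an exporter of small amino acids from lysosomes, had 30.5 and 29.7 CPM in shCtrl and 30.1 and 28.3 CPM in shUSP9X. Its groups overlapped (-0.04, 95% interval -0.23 to 0.14, edgeR adjusted p = 0.686), and it did not pass with the trend removed either (-0.11, edgeR adjusted p = 0.286). Slc36a4 (PAT4, chr9:15709738-15743361), which had the higher mean FPKM of the pair over the 4 libraries but not in shUSP9X replicate 1, was at 41.2 and 37.3 CPM in shCtrl and at 33.1 and 34.8 CPM in shUSP9X. It was called lower (-0.21 ± 0.08 SE, edgeR adjusted p = 0.0254), lost the call under DESeq2, with upper-quartile factors, in the 3 limma fits on FPKM and without shCtrl replicate 1 (-0.13), shUSP9X replicate 1 or shUSP9X replicate 2, and was higher with the trend removed (0.48, edgeR adjusted p = 1.28e-05).

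The largest rise of all members in the main fit was in the Slc43 family (with the trend removed Slc36a4, at 0.48, and Slc7a6, at 0.41, were higher). Slc43a3 (chr2:84936579-84958509), which is known as a carrier of purine nucleobases more than of amino acids, had 126 and 129 CPM in shCtrl and 180.2 and 186 CPM in shUSP9X. The log2 fold change was 0.53 ± 0.05 (SE, 95% interval 0.43 to 0.62, edgeR adjusted p = 1.13e-10), and 0.37 with the trend removed (edgeR adjusted p = 5.45e-08). On the FPKM scale the genes of this family moved further than in counts. Slc43a3 was at 60.9 and 64.0 FPKM in shCtrl and at 97.3 and 106 FPKM in shUSP9X, a log2(FPKM + 0.1) difference of 0.70. Slc43a2 (LAT4), a uniporter of large neutral amino acids, was at 1.61 and 2.02 FPKM in shCtrl and at 2.44 and 3.35 FPKM in shUSP9X, a difference of 0.64, while in CPM (8.59 and 9.61 against 9.36 and 12.6) the groups overlapped and the count test did not call it (0.26, edgeR adjusted p = 0.143). With the trend removed it was called higher (0.36, edgeR adjusted p = 0.0486). The limma fits on log2(FPKM + 1) and log2(FPKM + 0.1) also called it higher (limma adjusted p = 0.0391 and 0.041). The limma fit with no filter did not (limma adjusted p = 0.082). Without shUSP9X replicate 1 the value was 0.47 (edgeR adjusted p = 0.0218) and without shUSP9X replicate 2 it was 0.05 (edgeR adjusted p = 0.843). Of the exonic bases of Slc43a2, 9.18% overlap an antisense transcript.

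Other genes of amino acid supply and use give the setting of these changes, as counts over lists and medians with no test of a list. They stand beside the 33.6% lower and 33.8% higher of all genes tested, or 27.9% and 35.2% with the trend removed. Of 6 tested genes among other amino acid and peptide transporters, 2 were lower and 3 higher (median log2 fold change 0.26), and with the trend removed 2 were lower and 1 higher (median 0.08). Slc17a5, which exports sialic acid from lysosomes, fell most in the main fit, from 12.2 and 11.7 to 7.03 and 7.84 CPM (-0.69, edgeR adjusted p = 2.11e-04). Slc66a1, which exports cationic amino acids from lysosomes, rose most in the main fit, from 8.59 and 9.68 to 13.4 and 10.3 CPM (0.39, edgeR adjusted p = 0.027), and did not pass with the trend removed (0.12, edgeR adjusted p = 0.51). Slc16a10, a carrier of aromatic amino acids added after its values had been seen, was higher in both fits (0.36 and 0.56, edgeR adjusted p = 0.00353 and 3.78e-05).

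Among the 5 lists the ATF4 and amino acid response genes had the lowest median. Of 23 tested, 18 were lower and 3 higher, with a median log2 fold change of -0.57, and with the trend removed 20 were lower and 2 higher (median -0.72). Vldlr, a lipoprotein receptor, fell most in the main fit, from 19.3 and 17.0 to 3.69 and 3.86 CPM (-2.27, edgeR adjusted p = 1.01e-12). Chac1, which degrades glutathione, fell from 43.5 and 50.7 to 12.4 and 10.1 CPM (-2.06, edgeR adjusted p = 4.42e-15), and Atf4 itself from 466 and 476 to 351 and 353 CPM (-0.42, edgeR adjusted p = 6.99e-11, or -0.77 with the trend removed). Cebpb, a partner factor, rose most (0.39, edgeR adjusted p = 2.25e-06). With the trend removed Chac1 (-2.41) and Trib3 (-1.71), a pseudokinase, lay below Vldlr (-1.52). Chac1, Trib3 and Atf4 were added after their values had been seen.

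The enzymes that load amino acids onto tRNA in the cytosol were split, with 10 of 20 tested lower and 8 higher (median -0.16). Eprs, for glutamate and proline, fell most in the main fit, from 515 and 508 to 237 and 239.5 CPM (-1.10, edgeR adjusted p = 2.15e-19, or -0.93 with the trend removed, where Cars was at -1.06), and Kars, for lysine, rose most, from 194.5 and 196 to 350.3 and 357 CPM (0.86, edgeR adjusted p = 1.52e-16). Among glutamine and glutamate enzymes 5 of 16 were lower and 9 higher (median 0.43), and with the trend removed 4 were lower and 10 higher (median 0.23). Glul, which makes glutamine, fell from 9.23 and 10.1 to 3.29 and 2.79 CPM (-1.66, edgeR adjusted p = 3.08e-08), and Gclc, the first enzyme of glutathione synthesis, rose from 79.2 and 71.3 to 141 and 145.5 CPM (0.93, edgeR adjusted p = 3.7e-14). With the trend removed Gclc was again at 0.93, below Gclm (1.71).

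Of the genes by which mTORC1 senses amino acids, 8 of 35 tested were lower and 13 higher (median 0.04). Fnip1, a partner of folliculin, fell most in the main fit, from 79.6 and 84.1 to 24.3 and 20.3 CPM (-1.87, edgeR adjusted p = 3.07e-17), which was -0.49 with the trend removed, where Castor2 (-0.70) and Sesn1 (-0.58) were lower. Rragb, one of the Rag GTPases, had the highest value (1.53), from 8 and 5 counts in shCtrl to 25 and 17 in shUSP9X. It passed the filter on low counts only through shUSP9X, so this value is a description, although Rragb is among the 13 counted as higher. All 3 sestrins, of which Sesn2 is the known leucine sensor, were lower (Sesn1 -0.50, Sesn2 -0.27, Sesn3 -0.92), and with the trend removed they were at -0.58, -0.47 and -0.23, where Sesn3 did not pass (edgeR adjusted p = 0.149). Of the arginine-sensing pair, Castor2 was lower in both fits (-0.81 and -0.70) and Castor1 did not pass in either (0.57 and 0.21, edgeR adjusted p = 0.0998 and 0.568). These 5 were chosen after their values had been seen.

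**Figure D4:**
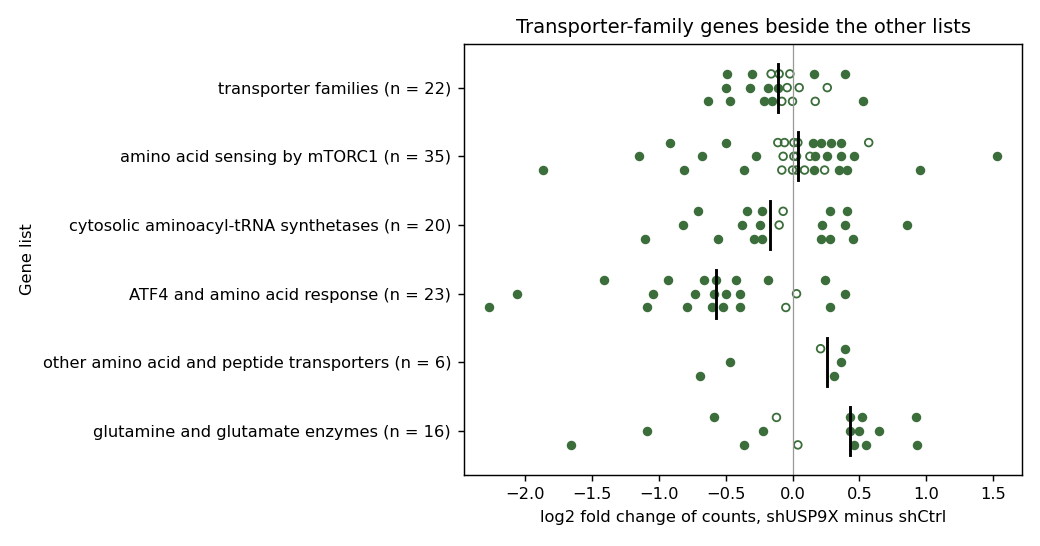
Log2 fold change of counts (shUSP9X minus shCtrl) of every tested gene of the transporter families and of 5 other lists, 1 point per gene (filled at an edgeR adjusted p under 0.05, open otherwise), with a black bar at each list's median. The transporter genes lie within -0.63 to 0.53, the ATF4 list has its median at -0.57, and the mTORC1, tRNA synthetase and glutamine lists reach further on both sides.

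Promoter windows were read for the C/EBP-ATF response element through which ATF4 acts on amino acid genes. RefSeq windows (GRCm38.p6, 250 bases before to 50 after a start) were searched for TGATGNAA on both strands, and 3.97% of 32851 windows held it. Windows were found for 15 of the 22 tested members, and 2 of these held a match, in 3 of the 24 windows of those 15 genes (12.5%). Windows of Slc7a7 overlap and share the same element, which is therefore counted more than once in that share. Among the ATF4 list 7 of 22 genes with a window held a match, in 7 of 26 windows. The pieces are printed 5′ to 3′ on the gene's strand, with the 8 matched bases in capitals, because they show where the element stands in the 2 members that have one. The Slc1a4 match is on the opposite strand and spans the start, chr11:20332699-20332728. Those of Slc7a7 stand 141 bases before 1 of its starts, chr14:54418067-54418096, and across that start, chr14:54417927-54417956. Both genes lie on the minus strand.
Slc1a4: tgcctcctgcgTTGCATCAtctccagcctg
Slc7a7, upstream: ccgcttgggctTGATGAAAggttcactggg
Slc7a7, at the start: gacctagaagcTGATGCAAcagcttccccg
Neither gene passed the test in the main fit (-0.08 for Slc1a4 and -0.16 for Slc7a7). The windows of Slc38a2, Slc3a2, Slc7a6 and Slc6a9 held no match, which says only that these letters are not in those 300 bases. A match is a description of sequence and not a binding site.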

How the data were processed

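RNA-seq values of 4 ID8 libraries, 2 shCtrl and 2 shUSP9X as grouped by the labels, were analysed. The authors deposited estimated counts per gene, not normalised, and FPKM, scaled for length and library size. The submitters' processing notes name fastp 0.18.0, Bowtie2 2.2.8, HISAT2, StringTie 1.3.1 and RSEM without their roles, and the study's methods name GRCm38. Libraries of a group differed by more than counting noise (chi-square per gene 3.35 and 2.23).

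Counts were rounded, filtered with filterByExpr, TMM-normalised and tested with edgeR 4.0.16 (R 4.3.3). The same steps were run on simulated counts, with few genes changed, or with a GC trend and no gene changed. In these data many genes changed and a GC trend was present, so that run does not check the calls reported here. Between 6.4 and 6.69% of counts were not whole numbers. Limma 3.58.1 was used on log2(FPKM + 1) and log2(FPKM + 0.1), and DESeq2 1.42.0 on counts. The trend on GC content and length (GENCODE M21, 99.8% of genes tested matched) was removed as an offset by loess with a span of 0.3. CPM were computed from the counts over the filtered library totals multiplied by their TMM factors. Whether groups overlapped in CPM was judged on this scale.

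Members and lists were chosen with earlier results of these data known. Genes named were Usp9x, each family's highest FPKM, members past an adjusted p under 0.05 and 1.5-fold without overlap, and members of at least 10 CPM that did not pass. Members below the filter with more than 3 counts in both libraries of 1 group and in neither of the other were also named. So were each list's largest rise and fall. Others, among them the remaining tested members, were added to describe each family in full. 1 member and 2 genes of the lists are not reported here.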

Additional observations from a re-analysis of the deposited data

How the results depend on the processing

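All results rest on 2 libraries a group, and each alternative was computed for the counts over members and for the 22 tested members, apart from Slc7a7 and Slc38a9 in the limma fits that ask for a mean of 1 FPKM. Over 16 settings beside the reported one, 272 of 348 gene values kept direction and call, 35 lost the call, 17 gained it and 24 changed sign. Slc6a8, Slc7a6, Slc38a2, Slc38a6 and Slc43a3 kept their direction and call in all 16. The members called lower numbered 6 under DESeq2 and 6 under each limma fit on FPKM, and between 6 and 9 when 1 library was left out (2 to 4 for those higher), where the lone library is assumed to vary like the other group. At a fold change above 1.5 they were 1 by the study's cutoff and 1 at an adjusted p, with 0 higher by either. Those higher were 7 with the GC content and length offset and 7 with the offset and the replicate block. Higher genes among other amino acid and peptide transporters were 1 with the offset.

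Signs changed under the offset in Slc7a2 (0.23), Slc7a6os (-0.21), Slc36a4 (0.48) and Slc38a9 (0.23, or 0.22 with the block). Values near 0 crossed it in Slc3a2 with upper-quartile factors (0.01), in Slc7a1 with library size only (-0.03), at least 10 counts in every library (-0.01) and each limma fit (-0.03), and in Slc36a1 with each limma fit (0.01). With 1 library left out, values ranged from -0.91 to 0.30 for Slc7a7, -0.08 to 0.01 for Slc36a1, -0.02 to 0.04 for Slc7a1, -0.21 to 0.05 for Slc38a7 and -0.03 to 0.01 for Slc3a2, and, with no change of sign, 0.05 to 0.47 for Slc43a2. The cause was not tested.

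With the replicate number as a block, 10 members were lower and 3 higher, as without it. Same-numbered libraries did not deviate together (r = -0.05 over genes), so the numbers are not taken to pair them.

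Members under the filter have a handful of counts each, and small changes in them were not detectable at this depth.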
